A study of Mus musculus with 6 samples.

Results

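The genes described here are 36 mouse genes that carry pyruvate and glutamine into the tricarboxylic acid (TCA) cycle, turn the cycle and export citrate from it. They were chosen by gene symbol, matched to the NCBI gene identifiers of the deposited table, and all 36 were found among its 18446 genes. Of these, 35 had a mean of 1 FPKM or more over the libraries and entered the counts. The exception was Pdk4, a pyruvate dehydrogenase kinase known for its induction in fasting, which stood between 0.00 and 0.18 FPKM in the 6 libraries. FPKM counts fragments per kilobase, relative to all mapped fragments, which corrects for transcript length, so levels may be compared between genes.

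RNA was sequenced from naive CD4+ T cells, purified by cell sorting from lymph nodes and spleen of C57BL/6 mice aged 6 to 8 weeks. Cells of wild-type (WT) mice and of mice labelled Zak-KO were cultured for 0, 6 or 48 h with antibodies to CD3 and CD28, which stand in for antigen and costimulation. The 6 groups had 1 library each, and no label says whether a library came from 1 animal or a pool, or whether the times came from the same animals. The labels give the second genotype as Zak-/- and elsewhere as a deficiency conditional to T cells, with no driver named. Map3k20, which encodes the kinase Zak, measured 0.17 FPKM in WT and 0.10 in the Zak-KO-labelled library at 0 h, at 0.19 and 0.10 at 6 h, and at 1.35 and 1.61 at 48 h. These gene-level values do not separate the labels, so the second genotype is called the Zak-KO label throughout.

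Pyruvate made by glycolysis enters mitochondria through the carrier MPC. It is oxidised to acetyl-CoA by the pyruvate dehydrogenase complex, which kinases switch off and phosphatases switch on, or is carboxylated to oxaloacetate. The cycle then oxidises the acetyl group, and glutamine refills it as glutamate and oxoglutarate. Activated T cells are known for a rise in glycolysis and glutamine use, and for drawing citrate and aspartate from the cycle for lipid and nucleotide synthesis.

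The summed FPKM of all genes was between 496045 and 546113 per library, with 1777 to 2793 genes at 0. Read depth was not given. The 6 CD4 T cell markers (Cd3e, Cd3d, Cd3g, Cd4, Lck, Cd5) summed to between 1652 and 1981 FPKM. Markers of CD8 T cells (8.88 to 12.78), B cells (3.22 to 6.94), myeloid cells (0.57 to 1.29) and erythroid cells (0.00 to 1.75) were low at all times. The 3 NK cell markers went in sum from 40.5 FPKM in WT and 37.7 in the Zak-KO label at 0 h to 21.1 and 14.02 at 6 h and 0.92 and 0.94 at 48 h, nearly all of it Klrd1, while the defining receptor Ncr1 stayed at 0.00 to 0.09. Proliferation markers (Mki67, Top2a, Ccna2) summed to 1.94 to 2.46 FPKM at 0 and 6 h and to 332 in WT and 286 in the Zak-KO label at 48 h. The NK and proliferation sums move with time as the genes below do, and their part in those results was not tested. In bulk RNA, fewer cells of a type and less RNA per cell cannot be told apart.

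Each comparison of 2 libraries is a difference of log2(FPKM+1) with no replicate check, and a gene was counted when that difference reached 2-fold. Adding 1 FPKM understates the change of low genes. A second, additive fit over all 6 libraries (limma, with terms for time and label) asked what the 2 labels share in time. Its error for each gene is the departure of the libraries from additivity, with 2 residual degrees of freedom, so it cannot test whether the labels respond differently. That variance is then drawn toward a trend over all 10347 genes, which adds 4.12 prior degrees of freedom. The SEs and p-values given rest on this moderated variance. "Rose" and "fell" are used for genes with a Benjamini-Hochberg adjusted p below 0.05 in that fit over 10347 genes.

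Promoter sequences are shown for Pdk3, Got1 and Mdh2, which were 2-fold higher at 48 h in both labels and held at least 1 of the motifs searched. The RefSeq table (GRCm38.p6, the same primary assembly as mm10) held promoters for 32 of the 36 genes, each from 250 bases before to 50 after the start. Idh3a, Me2, Gls2 and Pdp1 had none in the table. Capitals mark a motif on either strand, and each sequence runs 5′ to 3′ on the gene's own strand. The Pdk3 promoter lies at chrX:93832101-93832400 on the minus strand, the Got1 promoter at chr19:43524556-43524855 on the minus strand, and the Mdh2 promoter at chr5:135778399-135778698 on the plus strand.
Pdk3: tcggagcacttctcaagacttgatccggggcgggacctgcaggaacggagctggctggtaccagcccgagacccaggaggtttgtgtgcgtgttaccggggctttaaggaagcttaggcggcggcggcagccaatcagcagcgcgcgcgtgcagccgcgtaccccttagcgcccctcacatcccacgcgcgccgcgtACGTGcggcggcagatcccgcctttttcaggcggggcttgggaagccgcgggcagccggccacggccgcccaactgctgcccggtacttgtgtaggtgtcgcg
Got1: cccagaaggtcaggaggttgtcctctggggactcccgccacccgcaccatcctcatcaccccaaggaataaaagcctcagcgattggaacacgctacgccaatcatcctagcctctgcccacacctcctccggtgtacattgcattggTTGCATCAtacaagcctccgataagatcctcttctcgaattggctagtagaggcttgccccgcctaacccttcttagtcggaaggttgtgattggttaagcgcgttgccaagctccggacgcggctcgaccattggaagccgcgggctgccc
Mdh2: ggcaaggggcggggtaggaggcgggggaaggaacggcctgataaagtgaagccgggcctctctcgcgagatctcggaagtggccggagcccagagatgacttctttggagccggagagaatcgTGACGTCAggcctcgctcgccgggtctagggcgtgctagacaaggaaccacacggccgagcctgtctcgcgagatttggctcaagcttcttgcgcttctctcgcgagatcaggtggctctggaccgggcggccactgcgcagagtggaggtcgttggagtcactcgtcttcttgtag
The capitals in Pdk3 are ACGTG, the core letters of the hypoxia response element, 53 bases before the start. In Got1 they are TTGCATCA, 102 bases before the start, which is TGATGCAA on the other strand, the composite site of C/EBP and ATF factors. In Mdh2 they are the cyclic AMP response element TGACGTCA, 127 bases before the start.

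In all, 9 motif forms were searched on both strands, one of them added after the others had been read, and these promoters were chosen after the matches were seen. ACGTG was held by 9 of the 32 genes (Pdhb, Pdk2, Pdk3, Pdp2, Pcx, Idh3g, Ogdh, Mdh1, Slc25a1) by 30.1% of 8400 genes of 1 FPKM or more and by 19.6% of all promoters of this length. CACGTG, the E-box that contains ACGTG, was held by 5 (Pdk2, Pdp2, Pcx, Ogdh, Slc25a1) against 12.2% of those genes and 7.15% of promoters. TGATGCAA was held by Got1 alone, against 0.643% of genes and 0.895% of promoters, and its variant TGATGAAA by 0, against 0.798% and 1.02%. TGACGTCA was held by Ogdh and Mdh2, against 3.87% and 1.79%, and the ETS core CCGGAAGT by Dlst, against 10.5% and 3.89%. The NRF1 palindrome was held by 0 (2.63% of genes and 0.971% of promoters), its shorter core GCGCATGC, the form added later, by Ogdh and Glud1 (6.63% and 2.71%), and the YY1 element by 0 (2.11% and 0.633%). A gene such as Ogdh has several promoters in the table and counts as holding a motif when any of them does, so the share of genes is the one to set beside the 32. Pcx, with 2 promoters in the table, also held a motif and is not shown. Fh1, Got2 and Suclg1, also 2-fold higher in both labels, held none of these letters in this window. A match describes letters only.

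**Figure D1:**
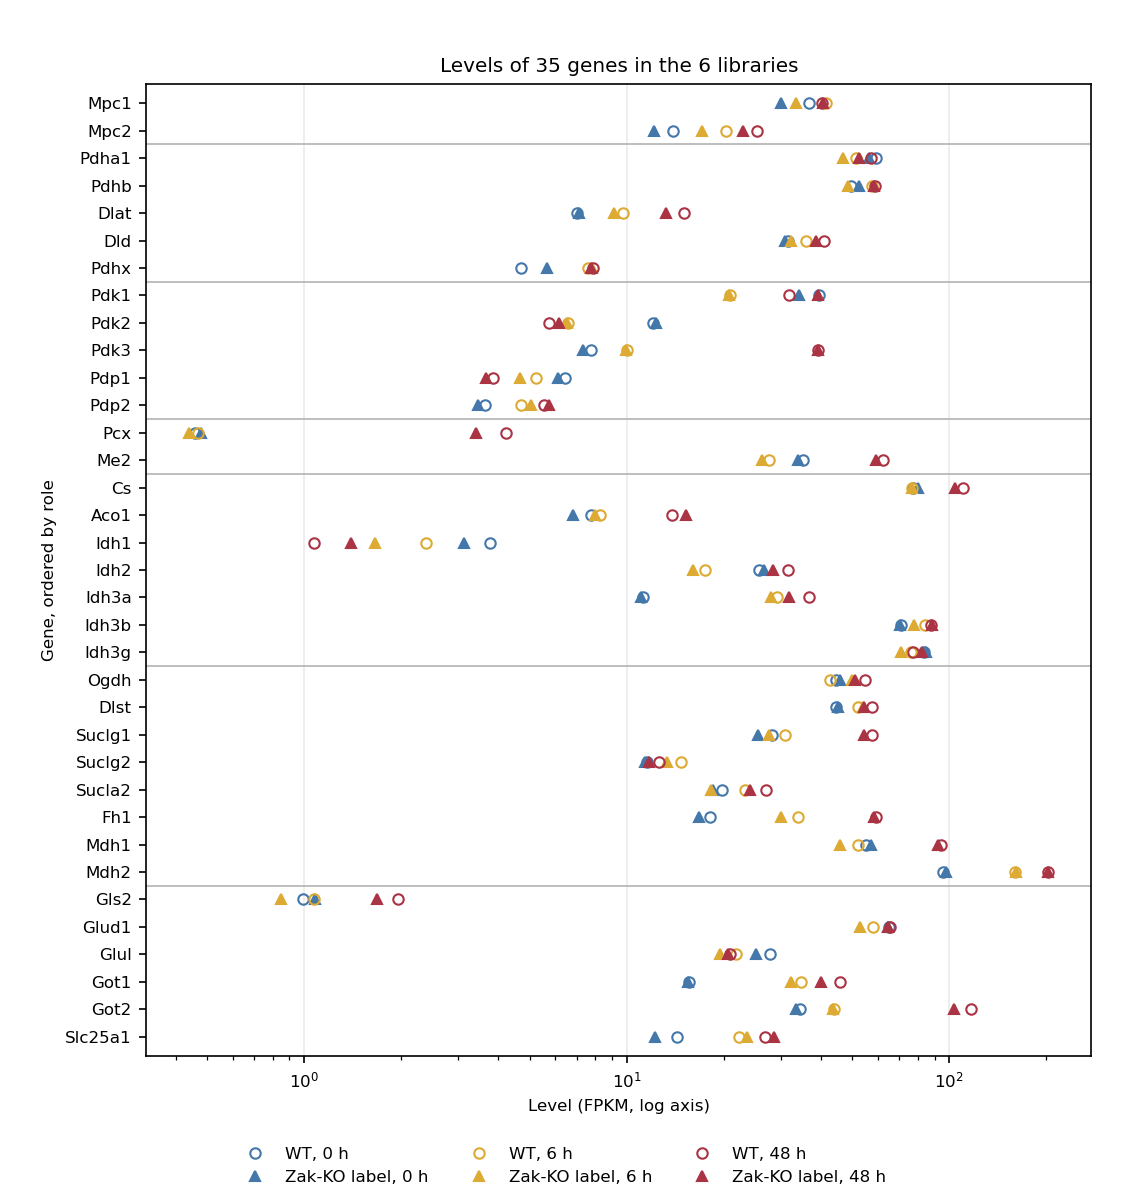
FPKM of the 35 genes (log axis) in each of the 6 libraries, with genes grouped by role from pyruvate entry to citrate export; symbols mark time and label. Mdh2 reached 202 and 203 FPKM at 48 h, while Pcx, Idh1 and Gls2 stayed below 5 FPKM in every library.

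The 36 genes together took 0.212% of the summed FPKM in WT and 0.211% in the Zak-KO label at 0 h, 0.221% in each at 6 h, and 0.297% and 0.284% at 48 h. The share at 48 h was above every earlier value in both labels. Summed FPKM of the genes was 1063 and 1046 at 0 h, 1185 and 1120 at 6 h, and 1601 and 1550 at 48 h. The plot of levels shows that most of the range lies between genes: Mdh2, Cs, Idh3g and Idh3b were each above 70 FPKM in every library, and Pcx, Gls2, Idh1 and Pdk4 were below 5.

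At 6 h, 2 of the 35 genes were 2-fold higher than at 0 h in WT, Idh3a and Got1, which is 5.71% of them against 8.93% of all genes. The same 2 were 2-fold higher in the Zak-KO label, against 9.08% of all genes. No gene of the 35 was 2-fold lower at 6 h, against 1.39% of all genes in WT and 1.52% in the Zak-KO label. The median log2 difference of the 35 was 0.17 in WT and 0.12 in the Zak-KO label, beside -0.06 and -0.08 over all genes. In the additive fit, 13 of 35 rose by 6 h (37.1%, against 26.3% of all genes) and 9 fell (25.7%, against 30.4%). Fewer of the 35 were called in either direction when either 0 h library was left out, and fewer fell without the Zak-KO-labelled 6 h library. Such refits have fewer residual degrees of freedom, and the share of all genes was not counted in them.

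At 48 h, 9 of the 35 genes were 2-fold higher than at 0 h in WT (25.7%, against 17.8% of all genes) and 10 in the Zak-KO label (28.6%, against 18.4%). The same 8 were counted in both: Pdk3, Pcx, Fh1, Got2, Idh3a, Got1, Mdh2 and Suclg1. Dlat was counted in WT alone, with log2 differences of 1.004 in WT and 0.806 in the Zak-KO label, and Slc25a1 (0.86 and 1.17) and Aco1 (0.76 and 1.06) in the Zak-KO label alone. With libraries scaled to a common sum, 6 genes were counted in WT and 7 in the Zak-KO label. Upper quartile scaling gave 7 in each, and adding 5 FPKM instead of 1 gave 6 in each. Mdh2 and Suclg1 lost their count in both labels with a common sum. The share of all genes was not counted under these settings. Idh1 alone was 2-fold lower in WT, against 12.3% of all genes, and no gene was in the Zak-KO label, against 12.0%. The median log2 difference was 0.50 in WT and 0.37 in the Zak-KO label, beside 0.00 and 0.06 over all genes. In the additive fit, 23 of 35 rose between 0 and 48 h (65.7%, against 39.0% of all genes) and 4 fell (11.4%, against 35.2%). The fit was rerun with each library left out in turn and under its other settings, with median ratio as the only scaling. Wherever the gene could be tested, 16 of the 23 and 3 of the 4 kept their call. The share of all genes that did so was not counted.

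Between 6 and 48 h, Pdk3, Pcx, Me2 and Got2 were 2-fold higher in both labels, 4 of 35 (11.4%), against 9.32% of all genes in WT and 10.8% in the Zak-KO label. None was 2-fold lower, against 6.14% and 6.55%. The additive fit called 20 of 35 higher (57.1%, against 29.8% of all genes) and 1 lower, Pdp1 (2.86%, against 30.0%). The Pdp1 call was lost without the filter on low values and when any 1 library was left out. Among the higher calls, those of Dld, Gls2, Glud1, Got1, Idh3a, Mpc2 and Sucla2 were lost under some other setting or with some library left out.

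**Figure D2:**
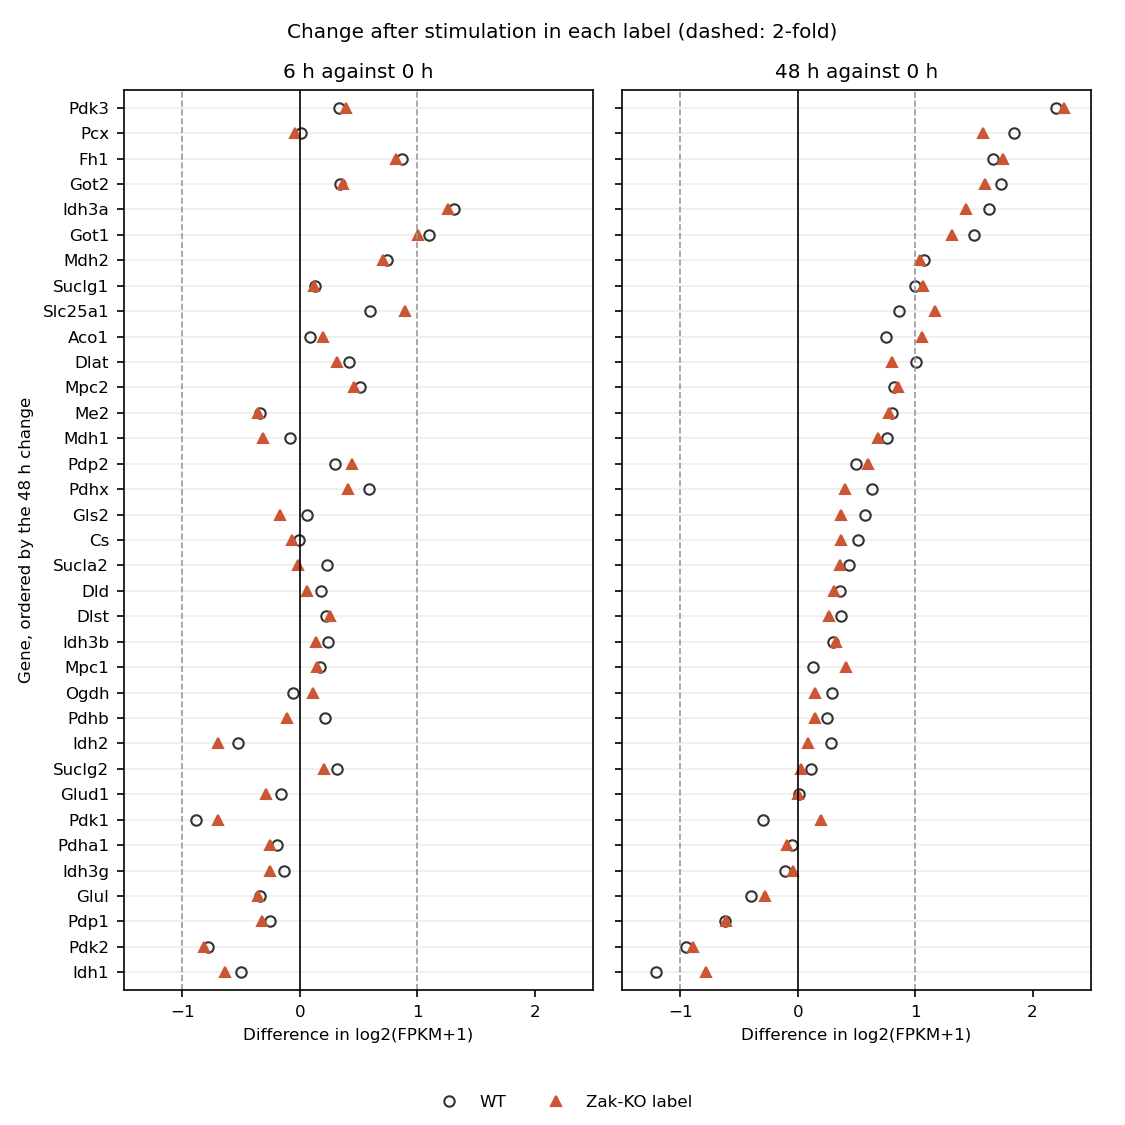
Difference in log2(FPKM+1) of each of the 35 genes between 6 and 0 h (left) and between 48 and 0 h (right), open circles for WT and filled triangles for the Zak-KO label, genes ordered by the 48 h change; dashed lines mark 2-fold. Idh3a and Got1 lie beyond 2-fold in both panels, Pdk3 lies furthest right at 48 h, and Pdk1 has its 2 symbols on opposite sides of 0 at 48 h.

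The plot of changes shows the order of the genes at 48 h and that the labels lie close to each other for most of them. Pdk3, Pcx and Got2, among those furthest right at 48 h, lay within 0.4 of 0 at 6 h in both labels on the log2 scale. Of these, Pdk3 (log2 0.36, SE 0.08, limma adjusted p = 0.0097) and Got2 (log2 0.36, SE 0.08, limma adjusted p = 0.0082) passed the test at 6 h, both calls being lost when either 0 h library was left out, and Pcx did not (log2 -0.02, SE 0.14, limma adjusted p = 0.94).

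The mitochondrial pyruvate carrier is a pair of small membrane proteins, MPC1 and MPC2, that work together. Mpc2 was at 13.9 FPKM in WT and 12.2 in the Zak-KO label at 0 h, at 20.3 and 17.1 at 6 h, and at 25.4 and 22.9 at 48 h. It was higher at each later time in both labels, and it rose by 6 h (log2 0.49, SE 0.08, limma adjusted p = 0.0028) and by 48 h (log2 0.84, SE 0.08, adjusted p = 0.00012). Mpc1 stood at 36.8 and 30.2 FPKM at 0 h, 41.5 and 33.6 at 6 h, and 40.4 and 40.5 at 48 h. Its values at 6 h did not separate from those at 0 h across labels, and its 48 h call (log2 0.27, SE 0.10, adjusted p = 0.042) was lost without a filter, without a variance trend and when either 0 h library or the Zak-KO-labelled 48 h library was left out. The ratio of Mpc1 to Mpc2 was 2.65 and 2.48 at 0 h, 2.05 and 1.96 at 6 h, and 1.59 and 1.77 at 48 h, lower at each later time in both labels. Transcripts of Mpc1 share 11.0% of their 50-base stretches with other genes, chiefly the pseudogene Mpc1-ps, so its level is uncertain.

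The pyruvate dehydrogenase complex joins a decarboxylase (Pdha1 and Pdhb), the acetyltransferase Dlat, the dehydrogenase Dld and the binding protein Pdhx. Dlat was the subunit with the steepest change: it had 7.02 FPKM in WT and 7.13 in the Zak-KO label at 0 h, 9.71 and 9.13 at 6 h, and 15.1 and 13.2 at 48 h. Values did not overlap between times, and Dlat rose by 48 h (log2 0.91, SE 0.09, limma adjusted p = 0.0002). Pdhx, which anchors Dld to the core, stood at 4.71 and 5.64 FPKM at 0 h, 7.57 and 7.80 at 6 h, and 7.86 and 7.77 at 48 h. Its 48 h values lay within 0.3 FPKM of those at 6 h in each label. It rose in the fit by 6 h (log2 0.50, SE 0.10, adjusted p = 0.0078), although this call was lost without the WT 0 h library. Dld, which also serves the oxoglutarate dehydrogenase complex, ranged from 31.0 to 40.9 FPKM and rose by 48 h (log2 0.34, SE 0.07, adjusted p = 0.0063), a call that was also lost without the WT 0 h library. Of the decarboxylase subunits, Pdha1 ranged from 46.9 to 59.2 FPKM and Pdhb from 48.7 to 59.0, and neither passed the test at 48 h (log2 -0.07, SE 0.07, adjusted p = 0.38, and 0.20, SE 0.09, adjusted p = 0.10). Pdha1 fell by 6 h (log2 -0.23, SE 0.07, adjusted p = 0.029), a call lost without a variance trend and when any 1 library but the WT 6 h one was left out. The ratio of Dlat to Pdhb was 0.141 and 0.136 at 0 h, 0.169 and 0.188 at 6 h, and 0.256 and 0.227 at 48 h. Transcripts of Pdhb share 10.9% of their 50-base stretches with other genes, chiefly Gm6123.

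Pyruvate dehydrogenase kinases phosphorylate the complex and switch it off, and the 3 expressed members moved in different ways. Pdk3 (chromosome X, 93764616 to 93832150, mm10) measured 7.72 FPKM in WT and 7.34 in the Zak-KO label at 0 h, 9.99 and 9.92 at 6 h, and 39.1 and 39.3 at 48 h. Both 48 h values were far above the other 4. It rose 4.71-fold by 48 h in the additive fit (log2 2.24, SE 0.08, limma adjusted p = 3.1e-06). Most of this lay between 6 and 48 h (log2 1.88, SE 0.08, adjusted p = 1.5e-05). Pdk2 stood at 12.1 and 12.3 FPKM at 0 h, 6.59 and 6.54 at 6 h, and 5.76 and 6.15 at 48 h. It had fallen by 6 h (log2 -0.80, SE 0.09, adjusted p = 0.0007) and remained lower than at 0 h at 48 h (log2 -0.92, SE 0.09, adjusted p = 0.00016). Pdk1, known as a target of the hypoxia factor HIF-1, stood at 39.5 and 34.1 FPKM at 0 h, 20.9 and 20.7 at 6 h, and 31.9 and 39.3 at 48 h. It fell by 6 h (log2 -0.79, SE 0.12, adjusted p = 0.0025) and rose again from 6 to 48 h (log2 0.74, SE 0.12, adjusted p = 0.0028), so that 48 h did not separate from 0 h (log2 -0.05, SE 0.12, adjusted p = 0.73).

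**Figure D3:**
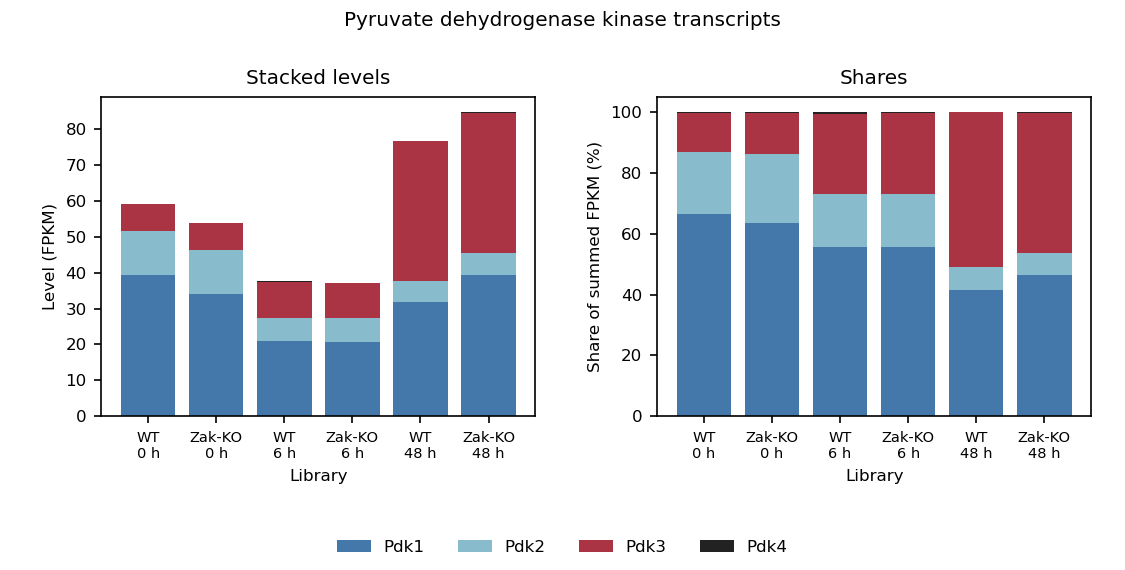
Pyruvate dehydrogenase kinase transcripts by time in each of the 6 libraries, as stacked bars of FPKM (left) and of percent of the summed kinase FPKM (right), with 1 colour per kinase. Pdk1 held 66.6% and 63.4% of the sum at 0 h, and Pdk3 held 50.9% and 46.3% at 48 h.

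The sum of the kinases was 59.3 FPKM in WT and 53.9 in the Zak-KO label at 0 h, 37.7 and 37.3 at 6 h, and 76.8 and 84.9 at 48 h, lowest at 6 h in both labels. The plot of kinase transcripts shows the change in make-up behind that sum. Pdk1 held 66.6% and 63.4% of it at 0 h, 55.5% and 55.6% at 6 h, and 41.6% and 46.3% at 48 h. The share of Pdk3 was 13.0% and 13.6% at 0 h, 26.5% and 26.6% at 6 h, and 50.9% and 46.3% at 48 h, higher at each later time. Pdk2 held 20.3% and 22.8% at 0 h and 7.5% and 7.25% at 48 h. At 48 h the ratio of Pdk3 to Pdk1 was 1.22 in WT and 1.0 in the Zak-KO label, after 0.196 and 0.215 at 0 h.

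The phosphatases, which remove the inhibitory phosphates, exchanged places. Pdp1 was at 6.45 FPKM in WT and 6.11 in the Zak-KO label at 0 h, 5.24 and 4.68 at 6 h, and 3.85 and 3.66 at 48 h. Pdp2 stood at 3.64 and 3.45 FPKM at 0 h, 4.70 and 5.04 at 6 h, and 5.54 and 5.72 at 48 h. By 48 h Pdp1 fell (log2 -0.61, SE 0.10, limma adjusted p = 0.0016) and Pdp2 rose (log2 0.55, SE 0.10, adjusted p = 0.0032). Their sum stayed between 9.38 and 10.1 FPKM, while the share of Pdp1 was 63.9% in both labels at 0 h and 41.0% and 39.0% at 48 h.

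Pyruvate carboxylase, encoded by Pcx, makes oxaloacetate from pyruvate, and the mitochondrial malic enzyme, encoded by Me2, returns malate to pyruvate. Pcx (chromosome 19, 4510472 to 4621752, mm10) had 0.46 FPKM in WT and 0.48 in the Zak-KO label at 0 h, 0.47 and 0.44 at 6 h, and 4.22 and 3.41 at 48 h. It was low at 0 and 6 h and above 3 FPKM only at 48 h. It rose between 6 and 48 h (log2 1.72, SE 0.14, limma adjusted p = 0.00016), and the 2-fold counts at 48 h lost it with a larger pseudocount. Me2 stood at 35.2 and 34.0 FPKM at 0 h, 27.6 and 26.3 at 6 h, and 62.1 and 59.1 at 48 h. It rose between 6 and 48 h (log2 1.14, SE 0.07, adjusted p = 4.9e-05), and the small fall before that (log2 -0.35, SE 0.07, adjusted p = 0.0063) was a call lost when either 0 h library was left out. Me2 remained the more abundant transcript, with a ratio of Me2 to Pcx of 76.6 and 70.8 at 0 h and 14.7 and 17.3 at 48 h. With 1 FPKM added to both genes these ratios were 24.8 and 23.6 at 0 h and 12.1 and 13.6 at 48 h.

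The first steps of the cycle run from citrate to oxoglutarate. Cs, the citrate synthase that joins acetyl-CoA to oxaloacetate, measured 76.9 FPKM in WT and 80.2 in the Zak-KO label at 0 h, 76.4 and 76.5 at 6 h, and 110.2 and 104 at 48 h. All values at 0 and 6 h lay between 76.4 and 80.2 FPKM, and it rose by 48 h (log2 0.44, SE 0.07, limma adjusted p = 0.0016). Aco1, the cytosolic aconitase that doubles as an iron-sensing RNA-binding protein, ranged from 6.79 to 8.28 FPKM at 0 and 6 h and stood at 13.8 and 15.2 at 48 h (log2 0.91, SE 0.11, adjusted p = 0.00033).

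The NAD-dependent isocitrate dehydrogenase is built from a catalytic subunit, Idh3a, and the subunits Idh3b and Idh3g. Idh3a (chromosome 9, 54586511 to 54604662, mm10) was at 11.2 FPKM in WT and 11.1 in the Zak-KO label at 0 h, 29.2 and 28.0 at 6 h, and 36.7 and 31.7 at 48 h. Its values at 6 and 48 h lay far above those at 0 h in both labels. It rose 2.44-fold by 6 h (log2 1.29, SE 0.08, limma adjusted p = 8.7e-05), the highest fold of the 35 genes at that time, and 2.89-fold by 48 h (log2 1.53, SE 0.08, adjusted p = 1.5e-05). The partner subunits were far more abundant and moved little, Idh3b from 70.3 to 88.2 FPKM and Idh3g from 70.9 to 84.8 over the 6 libraries. Idh3b rose by 48 h (log2 0.31, SE 0.07, adjusted p = 0.0071), a call lost when either 0 h library or the Zak-KO-labelled 48 h library was left out, and Idh3g did not pass the test (log2 -0.08, SE 0.08, adjusted p = 0.41). The ratio of Idh3a to Idh3b was 0.158 in both labels at 0 h, 0.348 and 0.362 at 6 h, and 0.420 and 0.360 at 48 h. In FPKM, Idh3a was thus the lowest of the 3 subunits in every library.

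The NADP-dependent isocitrate dehydrogenases took other courses. Idh2, the mitochondrial form, had 25.8 FPKM in WT and 26.7 in the Zak-KO label at 0 h, 17.5 and 16.0 at 6 h, and 31.6 and 28.5 at 48 h. It fell by 6 h (log2 -0.62, SE 0.09, limma adjusted p = 0.0015) and rose from 6 to 48 h (log2 0.80, SE 0.09, adjusted p = 0.00044). Idh1, the cytosolic form, stood at 3.78 and 3.13 FPKM at 0 h, 2.38 and 1.66 at 6 h, and 1.07 and 1.40 at 48 h. It was low throughout and lowest at 48 h, and it fell by 48 h (log2 -0.995, SE 0.166, adjusted p = 0.0018). Pdk2, Idh1 and Pdp1 were the genes that kept a lower call at 48 h under every setting of the fit in which each was tested.

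The 8 genes here from oxoglutarate onward leave out succinate dehydrogenase, which is read with the neighbouring lists below. Of these 8, 6 rose by 48 h and 0 fell in the additive fit, against 39.0% and 35.2% of all genes. Fh1, the fumarase, rose most (chromosome 1, 175601378 to 175625635, mm10). Fh1 measured 18.1 FPKM in WT and 16.7 in the Zak-KO label at 0 h, 33.9 and 30.1 at 6 h, and 59.3 and 58.6 at 48 h. Its values did not overlap between any 2 times. It rose 1.79-fold by 6 h (log2 0.84, SE 0.08, limma adjusted p = 0.0003) and 3.26-fold by 48 h (log2 1.71, SE 0.08, adjusted p = 6.8e-06). The ratio of Fh1 to Cs was 0.235 and 0.208 at 0 h and 0.538 and 0.564 at 48 h.

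Malate dehydrogenases convert malate to oxaloacetate, Mdh2 in mitochondria and Mdh1 in the cytosol. Mdh2 (chromosome 5, 135778649 to 135790386, mm10) was the most abundant of the 36 transcripts in each library. Mdh2 was at 95.5 FPKM in WT and 98.0 in the Zak-KO label at 0 h, 160.0 and 161 at 6 h, and 202 and 203 at 48 h. It rose by 6 h (log2 0.73, SE 0.07, limma adjusted p = 0.00029) and by 48 h (log2 1.06, SE 0.07, adjusted p = 2.2e-05). Mdh1 stood at 55.2 and 57.1 FPKM at 0 h, 52.0 and 45.8 at 6 h, and 94.5 and 92.4 at 48 h. It did not pass the test at 6 h and rose between 6 and 48 h (log2 0.92, SE 0.08, adjusted p = 0.00022). The ratio of Mdh1 to Mdh2 was 0.578 and 0.583 at 0 h, 0.325 and 0.284 at 6 h, and 0.467 and 0.456 at 48 h, lowest at 6 h in both labels.

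Succinyl-CoA ligase pairs a shared alpha subunit, Suclg1, with the GTP-forming Suclg2 or the ATP-forming Sucla2. Suclg1 (chromosome 6, 73248505 to 73276907, mm10) had 28.3 FPKM in WT and 25.5 in the Zak-KO label at 0 h, 30.9 and 27.7 at 6 h, and 57.7 and 54.6 at 48 h. It rose by 48 h (log2 1.04, SE 0.07, limma adjusted p = 3.4e-05). Sucla2 ranged from 18.3 to 27.0 FPKM and rose by 48 h (log2 0.40, SE 0.09, adjusted p = 0.0068), a call lost without the WT 0 h library. Suclg2 ranged from 11.4 to 14.7 FPKM and did not pass the test at 48 h (log2 0.08, SE 0.08, adjusted p = 0.45). The ratio of Suclg1 to Suclg2 was 2.45 and 2.23 at 0 h, 2.11 and 2.08 at 6 h, and 4.57 and 4.66 at 48 h. Suclg2 shares 16.0% of its 50-base stretches with Gm15163. The oxoglutarate dehydrogenase subunits moved less. Ogdh ranged from 42.6 to 54.7 FPKM and did not pass at 48 h (log2 0.22, SE 0.09, adjusted p = 0.07). Dlst, its succinyltransferase, ranged from 44.5 to 57.7 and rose by 48 h (log2 0.31, SE 0.07, adjusted p = 0.0079), a call lost when either 0 h library or the WT 48 h library was left out.

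Aspartate aminotransferases link glutamate and oxaloacetate to oxoglutarate and aspartate, Got1 in the cytosol and Got2 in mitochondria. Got1 (chromosome 19, 43499752 to 43524605, mm10) measured 15.6 FPKM in WT and 15.5 in the Zak-KO label at 0 h, 34.6 and 32.2 at 6 h, and 46.0 and 40.0 at 48 h. It rose 2.08-fold by 6 h (log2 1.05, SE 0.08, limma adjusted p = 0.00016) and 2.65-fold by 48 h (log2 1.41, SE 0.08, adjusted p = 1.7e-05). Got2 (chromosome 8, 95864133 to 95888401, mm10) stood at 34.5 and 33.5 FPKM at 0 h, 44.1 and 43.6 at 6 h, and 117 and 104 at 48 h. It rose mainly between 6 and 48 h (log2 1.31, SE 0.08, adjusted p = 4.1e-05). The ratio of Got1 to Got2 was 0.452 and 0.463 at 0 h, 0.785 and 0.738 at 6 h, and 0.392 and 0.386 at 48 h, highest at 6 h in both labels. Got2 shares 16.8% of its 50-base stretches with the pseudogene Got2-ps1, so its level is uncertain.

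Among the glutamine and glutamate enzymes, Gls2, the liver-type glutaminase, was at the floor of the counts, from 0.85 to 1.08 FPKM at 0 and 6 h and at 1.96 and 1.68 at 48 h. Glud1, the glutamate dehydrogenase, ranged from 52.8 to 65.7 FPKM and did not pass the test at 48 h (log2 0.01, SE 0.07, limma adjusted p = 0.95). Glul, the glutamine synthetase, was at 27.8 FPKM in WT and 25.2 in the Zak-KO label at 0 h, 21.8 and 19.5 at 6 h, and 20.9 and 20.6 at 48 h. It fell by 48 h (log2 -0.34, SE 0.08, adjusted p = 0.0082), a call lost when either 0 h library or the WT 48 h library was left out. Glul shares 11.9% and Glud1 6.49% of 50-base stretches with other genes, chiefly pseudogenes. Slc25a1, which carries citrate out of mitochondria, stood at 14.3 and 12.2 FPKM at 0 h, 22.3 and 23.5 at 6 h, and 26.9 and 28.6 at 48 h. It rose by 6 h (log2 0.75, SE 0.10, adjusted p = 0.0015) and by 48 h (log2 1.01, SE 0.10, adjusted p = 0.00018).

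Between the labels, 0 of the 35 genes differed 2-fold at 0, 6 or 48 h, against 0.271%, 0.242% and 2.23% of all genes. The widest gap among them was 1.21-fold in resting cells, 1.27-fold after 6 h and 1.22-fold after 48 h. The additive fit called 0 of the 35 for the label, against 0.0290% of all genes. Before adjustment, 2 of the 35 fell below 0.05, Mpc2 (log2 -0.18, SE 0.06, limma adjusted p = 0.83) and Sucla2 (log2 -0.20, SE 0.07, limma adjusted p = 0.83), both lower in the Zak-KO label, beside 4.88% of all genes. Mpc2 was lower in the Zak-KO label at each of the 3 times, and so was Sucla2. Others of the 35, Pdha1, Fh1 and Got1 among them, were also lower at each time. How many of all genes were so was not counted.

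**Figure D4:**
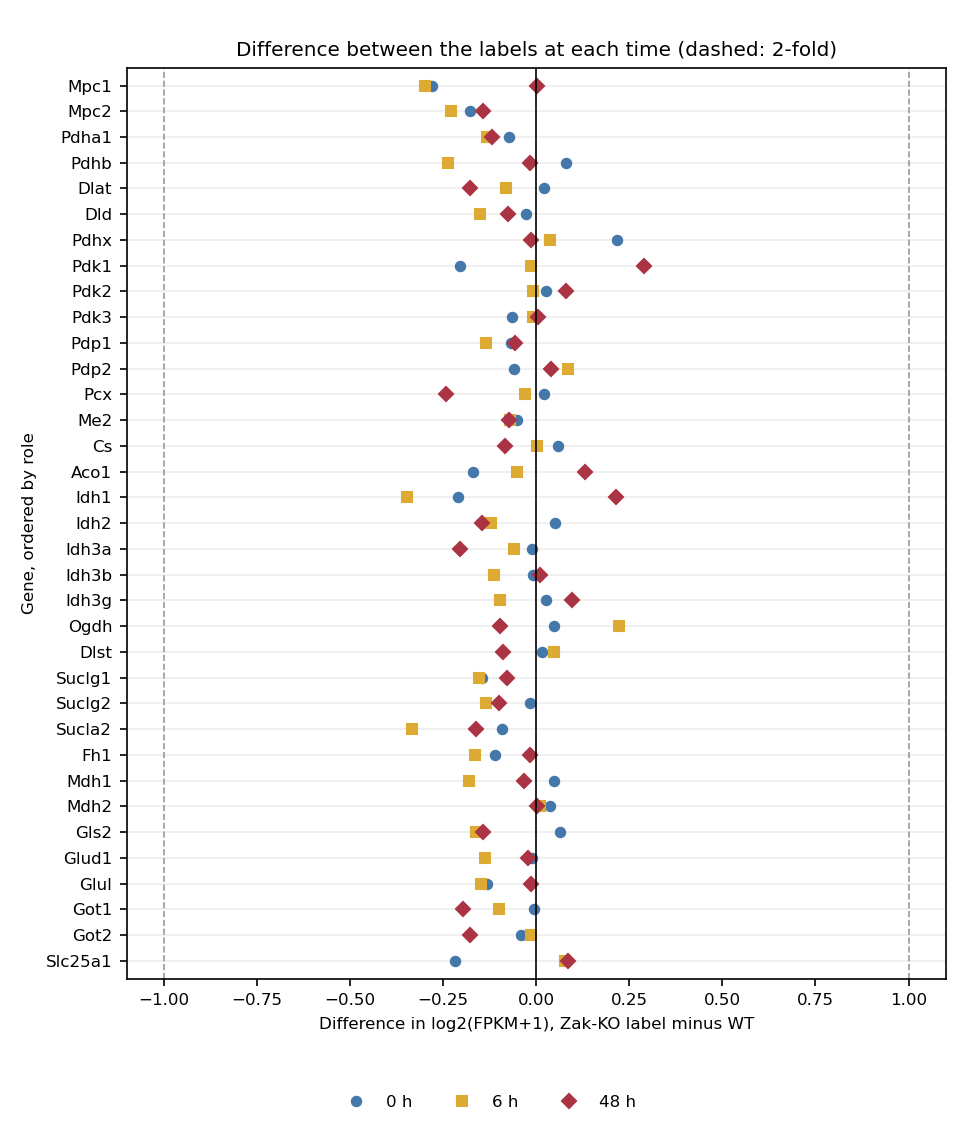
Difference in log2(FPKM+1) between the Zak-KO label and WT for each of the 35 genes at 0, 6 and 48 h, 1 symbol per time. No gene reaches 2-fold at any time, and 22, 28 and 24 of the 35 lie below 0 at 0, 6 and 48 h. Of all 10347 genes, 5374, 5498 and 5579 lie below 0 at those times.

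As the plot of label differences shows, 22 of the 35 genes were lower in the Zak-KO label at 0 h, 28 at 6 h and 24 at 48 h. Of all 10347 genes, 5374, 5498 and 5579 were lower at those times. The medians were -0.02, -0.10 and -0.06 for the 35, beside -0.01, -0.02 and -0.01 over all genes. The counts of the 35 moved with scaling. With every library scaled to a common sum, 18 of 35 lay below 0 at 0 h, 21 at 6 h and 28 at 48 h, and the 6 h median was -0.02. Median ratio scaling gave 22, 24 and 28, and upper quartile scaling 21, 30 and 27. The summed FPKM at 6 h was 506845 in the Zak-KO label and 535248 in WT.

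The responses of the 2 labels share no library, but the difference of responses has no test here. At 48 h the widest gap was in Pdk1, with log2 responses of -0.30 in WT and 0.20 in the Zak-KO label. Idh1 followed, with -1.21 and -0.78, and then Slc25a1, with 0.86 and 1.17, and Aco1, with 0.76 and 1.06.

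Neighbouring pathways were read from 8 lists of 92 genes, of which 89 were found in the table by symbol. Succinate dehydrogenase, the cycle step that is also a respiratory complex, was read with the other cycle genes: of 12 tested, 3 rose and 3 fell by 6 h, and 4 rose and 1 fell by 48 h. Over all genes, 26.3% rose and 30.4% fell by 6 h, and 39.0% rose and 35.2% fell by 48 h, which is the background for the counts of each of these lists. Sdhd, a membrane anchor of that complex, had 32.6 FPKM in WT and 29.5 in the Zak-KO label at 0 h, 34.0 and 31.0 at 6 h, and 68.8 and 66.2 at 48 h. Pdpr, which restrains the phosphatase Pdp1, stood at 14.9 and 14.3 FPKM at 0 h and 9.74 and 9.24 at 48 h. Of 8 genes for lipoate and thiamine, cofactors of the pyruvate and oxoglutarate complexes, 3 rose and 1 fell by 48 h, against the same 39.0% and 35.2% of all genes. The thiamine transporter Slc19a2 stood at 2.29 and 2.12 FPKM at 0 h, 5.09 and 4.39 at 6 h, and 9.13 and 8.47 at 48 h.

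The lactate branch is where pyruvate leaves instead of entering. All 4 tested genes rose by 48 h (against 39.0% of all genes), with a median log2 of 2.70 in the additive fit beside 0.44 for the 35. Ldha, the lactate dehydrogenase A subunit, had 147 FPKM in WT and 145 in the Zak-KO label at 0 h, 316 and 287 at 6 h, and 1014 and 921 at 48 h. Slc16a3, a lactate exporter, stood at 3.08 and 2.79 FPKM at 0 h, 6.11 and 8.39 at 6 h, and 86.4 and 87.5 at 48 h. Of 15 glycolytic enzymes, 14 rose and 1 fell by 48 h (against 39.0% and 35.2%), with a median log2 of 2.53. The ratio of Mpc2 to Ldha was 0.0945 and 0.0839 at 0 h and 0.0250 and 0.0248 at 48 h.

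Of 17 genes for glutamine uptake and other glutamine and glutamate enzymes, 10 rose and 2 fell by 6 h (against 26.3% and 30.4% of all genes) and 12 rose and 3 fell by 48 h (against 39.0% and 35.2%). Slc1a5, a glutamine transporter, measured 59.1 FPKM in WT and 57.4 in the Zak-KO label at 0 h, 499.6 and 475 at 6 h, and 299 and 294 at 48 h. Asns, the asparagine synthetase, stood at 0.13 and 0.10 FPKM at 0 h, 18.5 and 13.8 at 6 h, and 36.9 and 30.3 at 48 h.

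Of the 5 genes that use citrate or make acetyl-CoA, 3 rose and 2 fell by 48 h (against 39.0% and 35.2% of all genes). Acly, which splits exported citrate, stood at 43.8 and 45.0 FPKM at 0 h, 45.4 and 51.0 at 6 h, and 74.6 and 70.0 at 48 h. Fasn, the fatty acid synthase, stood at 10.9 and 10.8 FPKM at 0 h, 28.9 and 43.2 at 6 h, and 45.1 and 41.2 at 48 h. Acss1, which makes acetyl-CoA from acetate in mitochondria, went the other way, with 27.0 and 26.7 FPKM at 0 h, 12.0 and 13.0 at 6 h, and 2.42 and 2.41 at 48 h. Of 10 other mitochondrial carriers, 7 rose and 1 fell by 48 h, and of 13 genes for mitochondrial biogenesis and import, 8 rose and 2 fell, again against 39.0% and 35.2% of all genes. Slc25a5, an ADP/ATP carrier, stood at 140.5 and 140.5 FPKM at 0 h, 394 and 364 at 6 h, and 588 and 552 at 48 h. Tomm40, the pore of the outer membrane import complex, stood at 24.7 and 22.9 FPKM at 0 h, 78.1 and 87.9 at 6 h, and 75.6 and 75.3 at 48 h.

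**Figure D5:**
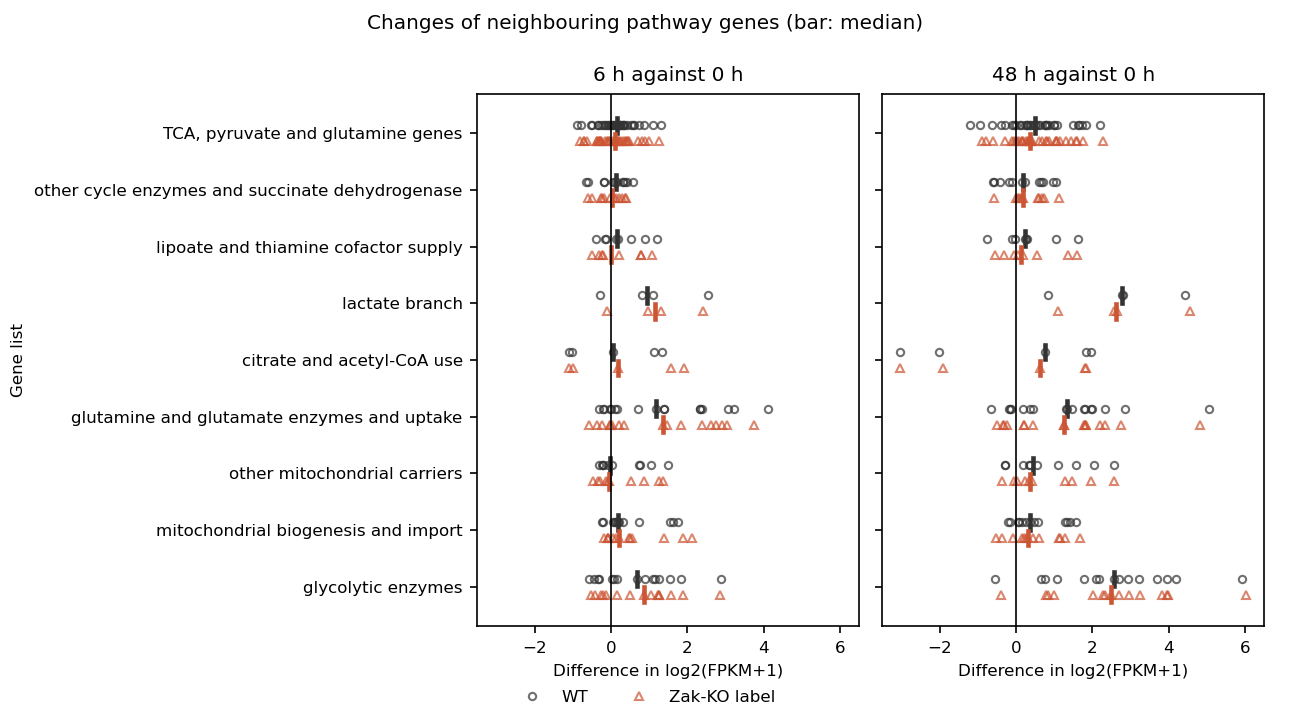
Difference in log2(FPKM+1) of each tested gene of the TCA, pyruvate and glutamine set and of the 8 neighbouring lists, between 6 and 0 h (left) and between 48 and 0 h (right), circles for WT and triangles for the Zak-KO label; thick bars are list medians. The lactate and glycolytic lists have medians above 2 at 48 h in both labels, while the top row has 0.50 and 0.37.

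The plot of the lists sets these medians side by side; genes of different lists were not tested against each other.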

How the data were processed

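RNA from 6 libraries was sequenced on an Illumina HiSeq, per the labels' protocols. The authors deposited a table of FPKM, which was used unchanged. Bowtie, RSEM and the build mm10 are named in the submitters' processing notes; their versions were not stated, and the read depth behind each value is unknown. The genes, the lists, the tests and the alternatives were chosen with earlier results of these data known.

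Values were compared as log2(FPKM+1) for the 10347 of 18446 genes whose mean reached 1 FPKM. With 1 library per group, comparisons of 2 libraries used a 2-fold rule and no test. The additive fit (limma 3.58.1, R 4.3.3, with a variance trend) had terms for time and label over 6 libraries and 2 residual degrees of freedom. Benjamini-Hochberg adjustment was over all 10347 genes. The simulated data on which the fit was tried held no label-specific response, so they cannot show how it does with such responses. P-values set the time and label effects against departures from additivity, moderated over all genes, and not against the spread between animals. Named list genes came from a rule (up to 3 with the largest WT change in each direction, mean of 5 FPKM or more), of which some are given and some are not reported here. Ratios and shares were listed after the values had been seen. Shared stretches are 50-base sequences of GENCODE M21 transcripts found in other genes. Symbols and positions came from RefSeq GRCm38.p6, which named 18326 genes; 120 had no symbol. The figures used Python 3.11.15 and matplotlib 3.10.9.

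Alternatives changed the pseudocount (0.1 or 5 FPKM), the minimum mean (0 or 5 FPKM), the scaling (common sum, median ratio, upper quartile), the fold (1.5) and the variance trend. Of the scalings, the additive fit was rerun with median ratio only. Leaving out each library was added after the data were seen.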

Additional observations from a re-analysis of the deposited data

Results flagged for a closer look

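Responses to stimulation had opposite signs in the 2 labels for 5 of 35 genes at 6 h and 2 at 48 h. None of these differences was tested, since each label has 1 library per time. The same count was not made over all genes, so whether 5 and 2 are many or few is unknown. Values are the Zak-KO-label response minus the WT response on the log2(FPKM+1) scale. At 6 h the difference was -0.32 for Pdhb, with responses of 0.21 in WT and -0.11 in the Zak-KO label. It was -0.24 for Sucla2 (0.23 and -0.02), -0.23 for Gls2 (0.06 and -0.17) and 0.18 for Ogdh (-0.06 and 0.12), and it was -0.05 for Pcx (0.01 and -0.04). At 48 h it was 0.49 for Pdk1 (-0.30 and 0.20) and -0.01 for Glud1 (0.01 and 0.00). All but that of Pdk1 lay within 0.35 of 0.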

How the results depend on the processing

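The labels carry no replicate numbers to block on, so libraries could be paired by time only. The label term of the additive fit compares the labels within each time. With a pseudocount of 5 FPKM the genes counted as 2-fold higher became 1 for 6 h and 6 for 48 h in each label. Those 2-fold lower at 48 h in WT became 0. With 0.1 FPKM the lower counts became 2 for 48 h against 0 h in WT, 1 for 48 h against 6 h in WT and 1 for 48 h against 0 h in the Zak-KO label. A mean of 5 FPKM or more left 30 genes; the lower counts became 0 at 48 h in WT, 2 in the additive fit at 48 h and 0 between 6 and 48 h, since Idh1, Pdp1, Pcx, Gls2 and Pdp2 had no value. Without a filter the additive fit called 0 lower between 6 and 48 h. Scaling to a common sum gave 2 lower at 48 h in WT, 1 lower at 48 h and 1 higher at 6 h in the Zak-KO label, and upper quartile scaling gave 2 lower at 48 h in WT and 1 higher at 6 h in the Zak-KO label. The genes 2-fold higher at 48 h became 6 in WT and 7 in the Zak-KO label with a common sum, and 7 in each with upper quartile scaling. A common sum also moved the median of all genes for the Zak-KO label at 48 h from 0.06 to -0.06, and that between the labels at 6 h from -0.02 to 0.05. The 1.5-fold rule counted 6 higher and 2 lower at 6 h, 15 and 3 at 48 h, and 11 and 1 between 6 and 48 h in WT, and in the Zak-KO label 5 and 4 at 6 h, 3 lower at 48 h and 10 higher between 6 and 48 h. Leaving out each library in turn, the additive fit called 6 to 12 higher and 3 to 10 lower at 6 h, 16 to 25 and 3 to 4 at 48 h, 15 to 19 and 0 to 1 between 6 and 48 h, and 0 for the label. The cause of these changes was not tested, save where fewer genes entered. Under every pseudocount, filter and scaling run and in both labels, the 5 genes Fh1, Got1, Got2, Idh3a and Pdk3 stayed 2-fold higher at 48 h than at 0 h. Without counts, the precision of low genes such as Pcx, Gls2 and Pdk4 is unknown.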
